A study of Mus musculus with 2 samples.

Results

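Laminins and integrins were followed in the endometrium of mice on day 3 of pregnancy, in 1 single-cell library from Erbb3 f/f females (the controls) and 1 from Erbb3 d/d females, in which, per the series' design text, Erbb3 is deleted in the stroma. Every gene whose symbol is Lama, Lamb or Lamc with a number, or Itga or Itgb with a number, was taken, which gave 32 of the 19070 genes measured: 11 laminin chains and 21 integrin subunits. Integrin subunits with a letter in place of a number (Itgav, Itgae, Itgal, Itgam, Itgax, Itgad) fall outside that rule and are given only as partners. Of the 32 genes, 25 reached 100 unique molecular identifiers (UMIs, 1 per captured probe molecule) in the 2 libraries together. A further 6 had fewer, namely Itga2 with 97, Lamc3 with 81, Itga8 and Itgb7 with 40 each, Lama1 with 14 and Itga11 with 12, and Itgb2l had none. The labels give neither the Cre driver nor the age, strain or number of the females behind a library, and with 1 library per genotype no test between genotypes was possible. A difference below is a difference between these 2 libraries, and its interval covers counting error only.

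Laminins are cross-shaped trimers of an alpha, a beta and a gamma chain that self-assemble into a sheet and start the basement membrane under epithelia and around vessels and muscle. Integrins are pairs of an alpha and a beta subunit in the cell membrane that bind laminin, collagen, fibronectin or cell-surface proteins and link them to the cytoskeleton. In the uterus the luminal and glandular epithelium stands on a laminin-rich basement membrane next to the stroma, and integrins of both compartments are studied for their part in gland growth and embryo attachment.

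The f/f library held 5783 cell barcodes with 6819591 UMIs and the d/d library 2125 barcodes with 2866862 UMIs. After filtering, 5503 and 1830 cells remained, with medians of 809.0 and 764.5 UMIs per cell. No whole barcode was shared between the libraries, which the design fixes, because the bases after the first 16 mark the library's probe barcode. Over all barcodes, 158 sequences of the first 16 bases occurred in both libraries. Cells were assigned by marker UMIs to classes called gated, of which 2175 f/f and 748 d/d cells were epithelial-gated and 1659 and 430 were stromal-gated, while 22.3% and 28.3% of the cells stayed without a class. UMIs of a class were summed and scaled to a total of 1000000 per class (CPM), so that fewer cells with a transcript and fewer molecules per cell cannot be told apart. The targeted gene, Erbb3, had 23 and 3 UMIs in the f/f and d/d stromal-gated cells (log2 ratio of d/d to f/f -0.97, 95% interval -3.35 to 0.76; all ratios between the libraries below are written in this direction, with this interval), a level at which the deletion was not detectable at this depth. In epithelial-gated cells Erbb3 was at 78.5 and 45.5 CPM (log2 ratio -0.78, -1.38 to -0.24). Probes outside the deleted part of a gene would still read its transcript, and the probes' positions are not given in the sources used here.

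The purity of the gates was measured with marker genes that the gate did not use. All 6 epithelial ones (Krt8, Krt18, Krt19, Krt7, Muc1 and Wnt7a) had UMIs in stromal-gated cells, at a summed level of 394 CPM in f/f and 783 CPM in d/d, which is 20.9% and 32.2% of their summed level in epithelial-gated cells. All 5 stromal ones (Col6a1, Col6a3, Col5a2, Fbn1 and Pdgfrb) had UMIs in epithelial-gated cells, at 108 and 99.6 CPM, or 6.19% and 5.30% of their level in stromal-gated cells. Epithelial signal in the stromal gate therefore differed between the libraries, with a log2 ratio of 0.99 (0.79 to 1.19), and stromal signal in the epithelial gate did not differ beyond counting error (-0.12, -0.53 to 0.27). Only 2 of the 5 stromal markers in f/f, and 1 of 5 in d/d, were highest in the stromal gate among all gated classes, and 5 of 6 epithelial markers in f/f and 3 of 6 in d/d were highest in the epithelial gate. Both gates are therefore read below as cells chosen by their markers and not as pure types. The epithelial-gated cells also differed in cell-cycle genes: 27.1% of them in f/f and 66.7% in d/d had at least 2 UMIs of a list of 27 such genes.

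The first comparison asked which laminins and integrins differed between the libraries in epithelial-gated cells. The integrin subunits Itga9 and Itgb8 were each about 4 times lower in d/d, the chain Lama3 and the subunit Itgb4 were lower by less than that, and Lama5 and Itga3 were higher. Of the 32 genes 15 had at least 100 UMIs in this class. Of those 15, 2 (13.3%) were lower in d/d by at least 1 on the log2 scale, beside 4.42% of all 6735 genes counted there, and 0 were higher by that much, beside 4.86%. Their median log2 ratio was -0.40, beside -0.02 for all genes, with 10 of 15 below 0. Counting intervals lay below 0 for 5 of them, beside 20.1% of all genes, and above 0 for 2, beside 20.9%.

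The bases before 1 annotated start are printed for Itga9 and Itgb8, which had the largest ratios among the members with at least 100 UMIs in this class. The same is given for Lama5, which differed the other way. Whether the start used is the main one of its gene was not checked. Each is the 250 bases before the annotated start in RefSeq (GRCm38.p6), written 5′ to 3′ on the gene's strand, and 21 of the 32 genes had such a window. Capitals mark matches of the GC box (GGGCGG), the only 1 of 4 searched motifs found in these windows on either strand.
Itga9, chr9:118711442-118711691, plus strand: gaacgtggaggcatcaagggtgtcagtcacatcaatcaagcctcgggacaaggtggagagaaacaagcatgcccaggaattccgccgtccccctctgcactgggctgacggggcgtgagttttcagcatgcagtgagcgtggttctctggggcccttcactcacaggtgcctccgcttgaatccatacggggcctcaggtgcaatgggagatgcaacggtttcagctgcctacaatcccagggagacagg
Itgb8, chr12:119238277-119238526, minus strand: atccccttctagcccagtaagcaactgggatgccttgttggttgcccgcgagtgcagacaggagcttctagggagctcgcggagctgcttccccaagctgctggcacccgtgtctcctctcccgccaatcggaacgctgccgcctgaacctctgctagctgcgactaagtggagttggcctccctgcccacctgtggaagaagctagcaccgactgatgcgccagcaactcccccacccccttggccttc
Lama5, chr2:180225860-180226109, minus strand: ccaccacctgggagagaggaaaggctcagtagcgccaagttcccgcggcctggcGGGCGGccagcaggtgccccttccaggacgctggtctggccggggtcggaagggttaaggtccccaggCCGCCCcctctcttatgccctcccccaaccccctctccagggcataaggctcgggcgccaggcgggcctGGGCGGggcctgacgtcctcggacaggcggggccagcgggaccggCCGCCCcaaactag
The Lama5 window held 4 GC boxes, beginning 196, 128, 59 and 14 bases before the start, and 32.7% of all 32851 windows held at least 1. The half-sites of the progesterone receptor (TGTTCT, in 16.1% of all windows) and the estrogen receptor (GGTCA, in 35.2%) and the AP-1 motif (TGANTCA, in 6.7%) had no match in the windows of these 3 genes.

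Itga9 (ENSMUSG00000039115) had the most UMIs of the members that were lower by at least 1 in epithelial-gated cells. It encodes the alpha9 subunit, which pairs with beta1 and binds tenascin-C, osteopontin and other matrix proteins. Epithelial-gated cells held 594 and 47 Itga9 UMIs (f/f, then d/d), or 262 and 66.9 CPM, a log2 ratio of -1.97 (-2.43 to -1.54). Relative to its partner Itgb1 in the same cells, Itga9 stood at 347 (f/f) and 124 (d/d) UMIs per 100 Itgb1 UMIs (log2 ratio -1.49, -2.19 to -0.78). The level differed between the libraries in both cycle-gated cells (179.6 against 75.7 CPM) and the other epithelial-gated cells (308 against 42.6 CPM). The log2 ratio was -1.25 (-1.79 to -0.73) in the former and -2.85 (-4.07 to -1.86) in the latter, so the difference was present within each cell-cycle stratum. In stromal-gated cells Itga9 was at 76.8 and 52.8 CPM, with an interval that includes 0 (-0.54, -1.26 to 0.12).

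Itgb8 (ENSMUSG00000025321) was the only member with the minimum of UMIs that was lower by at least 1 on the log2 scale in both large classes. It encodes the beta8 subunit, which pairs with alphav and activates latent TGF-beta. In epithelial-gated cells it had 164 and 13 UMIs, or 72.3 and 18.5 CPM (log2 ratio -1.97, -2.91 to -1.15). In stromal-gated cells it had 178 and 18 UMIs, or 109 and 43.2 CPM (log2 ratio -1.34, -2.13 to -0.64). The epithelial difference was seen in cycle-gated cells (56.6 against 11.6 CPM) and in the rest (81.0 against 37.3 CPM), where only 6 and 7 d/d UMIs stood behind it. In f/f the gene was higher in stromal-gated than in epithelial-gated cells by 0.60 on the log2 scale (0.28 to 0.91). The stromal difference was smaller where a gate needed a lead of 5 times over every other type (-0.81, -1.76 to 0.01) and where cells with any cell-cycle UMI were left out (-0.94, -1.99 to -0.04).

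Itgb6, the other epithelial subunit that activates latent TGF-beta with alphav, did not follow Itgb8 in the class as a whole. It was at 50.7 CPM in f/f and 54.1 CPM in d/d epithelial-gated cells (log2 ratio 0.09, -0.48 to 0.63). Its strata had opposite signs, at 0.92 (0.11 to 1.75) in cycle-gated cells and -0.54 (-1.79 to 0.50) in the others. In those other cells Itgb8 was at -1.12 (-2.47 to -0.03), an interval that overlaps that of Itgb6. The ratio of Itgb8 to Itgb6 UMIs was 143 per 100 in f/f and 34.2 per 100 in d/d, a log2 ratio of -2.05 (-3.15 to -1.04). The shared partner Itgav was at 149 and 109.6 CPM in epithelial-gated cells (-0.44, -0.82 to -0.08) and at 131 and 113 CPM in stromal-gated cells (-0.22, -0.71 to 0.24). This ratio and the other ratios of 1 member to another were chosen after the values had been seen.

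**Figure D1:**
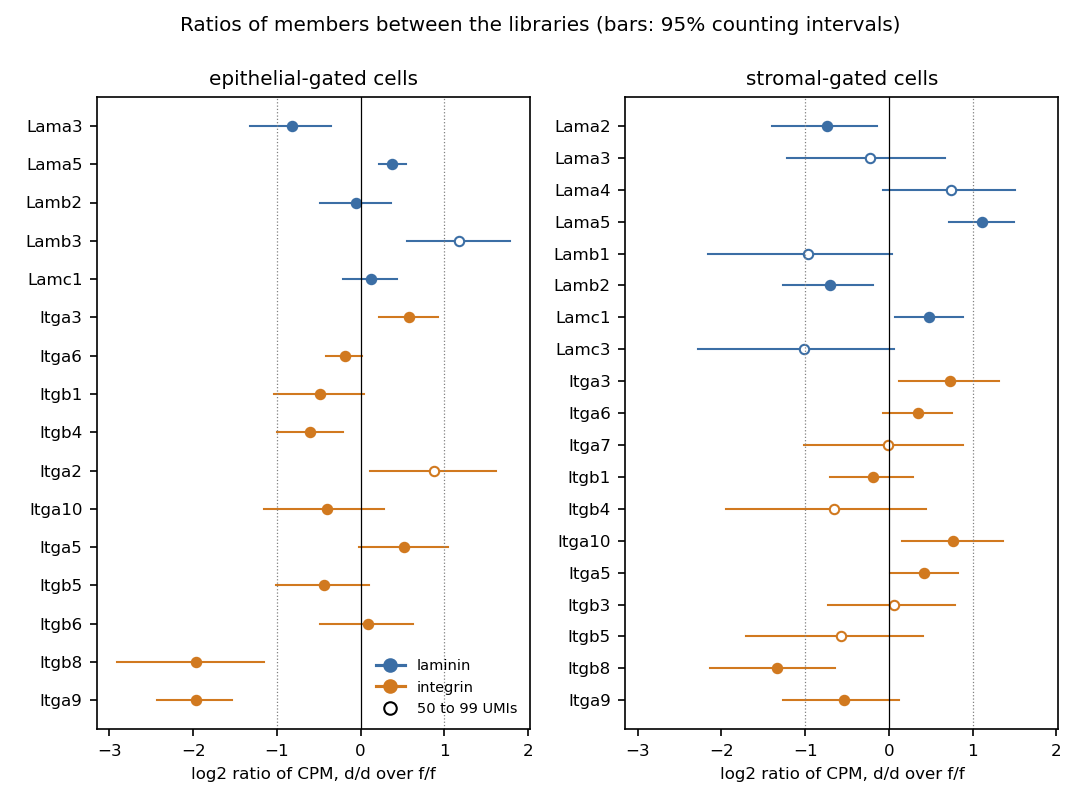
Log2 ratio of CPM (d/d to f/f) for each laminin (blue) and integrin (orange) reported here whose UMIs in the 2 libraries sum to 50 or more in epithelial-gated (left) or stromal-gated cells (right); bars are 95% counting intervals, open points have 50 to 99 UMIs and dotted lines mark -1 and 1. Itga9 and Itgb8 lie at -1.97 in epithelial-gated cells, and in stromal-gated cells Itgb8 lies at -1.34 and Lama5 at 1.11.

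Lama3 and Lamb3, an alpha and a beta chain found in the laminin of epithelial anchoring contacts, differed in opposite directions. Lama3 had 245 and 43 UMIs, or 108 and 61.2 CPM, in epithelial-gated cells (log2 ratio -0.82, -1.32 to -0.35). Lamb3 had 57 and 40 UMIs, or 25.1 and 56.9 CPM, and was higher in d/d (1.18, 0.56 to 1.79); its 97 UMIs fall short of the minimum of 100, so it is not among the 15 counted. The ratio of Lamb3 to Lama3 UMIs was 23.3 per 100 in f/f and 93.0 per 100 in d/d (1.99, 1.20 to 2.79); the pair was chosen because its chains went opposite ways, so this ratio describes them and adds no support. Because the number of probe pairs per gene is not given, this ratio compares libraries and says nothing of the chains' stoichiometry.

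The cell-cycle strata gave the same signs for both chains with wider intervals. Lama3 was at 73.8 and 52.4 CPM in cycle-gated cells (-0.49, -1.21 to 0.18) and at 127 and 85.3 CPM in the other epithelial-gated cells (-0.58, -1.41 to 0.16), so neither stratum alone separated the libraries beyond counting error. Lamb3 was at 24.6 and 62.1 CPM in cycle-gated cells (1.34, 0.49 to 2.22), and the other cells, with 37 and 8 UMIs, gave 0.75 (-0.57 to 1.87).

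Lama5 (ENSMUSG00000015647), the alpha chain of the laminins found in most mature epithelial and endothelial basement membranes, was higher in d/d. In epithelial-gated cells it had 1066 and 430 UMIs, or 469.8 and 612 CPM (0.38, 0.22 to 0.54). It was higher in d/d in cycle-gated cells (418 against 599.8 CPM; 0.52, 0.29 to 0.75) and in the others (499 against 645 CPM; 0.37, 0.08 to 0.65). With all deposited barcodes the epithelial ratio of Lama5 was 0.18 (0.05 to 0.32). The median over all genes counted was -0.18 with those barcodes, beside -0.02 in the filtered cells. Lamb2 and Lamc1, the beta and gamma chains that join Lama5 in laminin-521, were at 90.4 and 86.8 CPM (-0.06, -0.49 to 0.36) and at 139 and 151 CPM (0.12, -0.21 to 0.44). Neither of these differed between the libraries beyond counting error.

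The laminin-binding integrin subunits were split as well. Itgb4, the hemidesmosome subunit that pairs with Itga6, was at 139.7 CPM in f/f and 92.5 CPM in d/d epithelial-gated cells (-0.60, -1.00 to -0.21). Within the strata the interval included 0 for Itgb4, at -0.41 (-0.98 to 0.14) in cycle-gated cells and -0.31 (-0.98 to 0.30) in the others. Itga6 was at 378 and 330.1 CPM (-0.19, -0.41 to 0.02). Its ratio was -0.23 (-0.50 to 0.03) in cycle-gated cells and -0.42 (-0.87 to -0.00) in the others. With all deposited barcodes the ratio of Itga6 was -0.48 (-0.66 to -0.31). Itga3, which pairs with beta1 to bind Lama5 and Lama3 laminins, was higher in d/d, at 97.4 and 145 CPM (0.58, 0.22 to 0.92), and in cycle-gated cells at 81.2 and 149 CPM (0.88, 0.39 to 1.38). In the other epithelial-gated cells Itga3 was at 106 and 133 CPM (0.32, -0.35 to 0.94), and with all deposited barcodes its ratio was 0.16 (-0.14 to 0.44). Itgb1, the common beta subunit, was at 75.4 and 54.1 CPM (-0.48, -1.03 to 0.04).

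**Figure D2:**
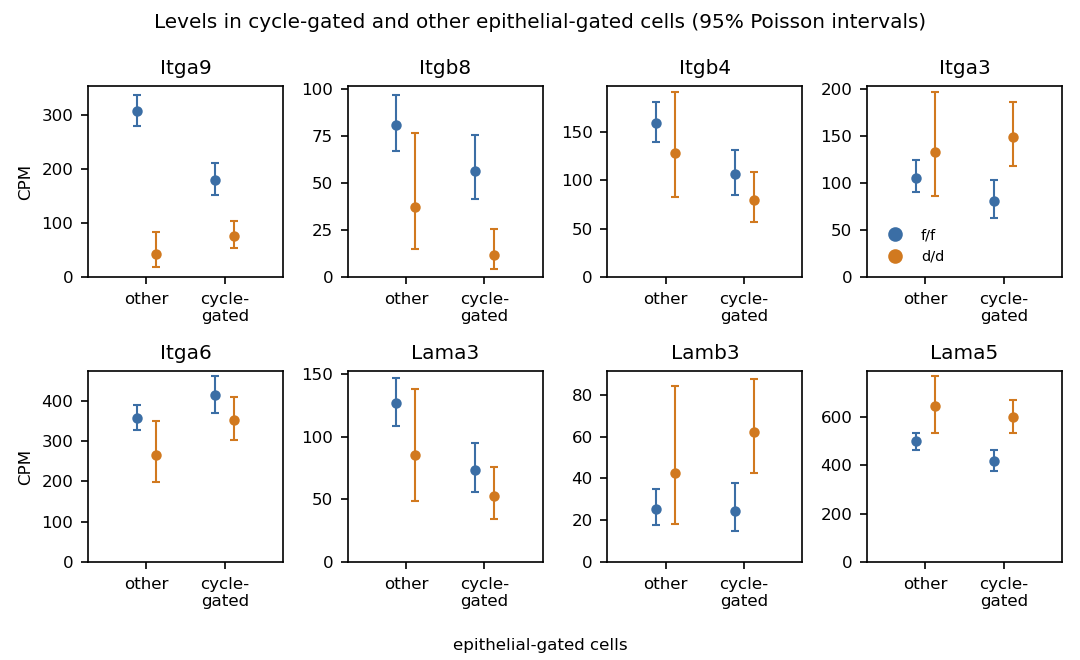
CPM of 8 genes in epithelial-gated cells with fewer than 2 UMIs of the cell-cycle list (other) or at least 2 (cycle-gated), in f/f (blue) and d/d (orange); bars are 95% Poisson intervals, which cover counting error only, and each vertical axis starts at 0 with its own scale. Itga9 is lower in d/d in both strata (308 against 42.6 and 179.6 against 75.7 CPM) and Lama5 is higher in both (499 against 645 and 418 against 599.8 CPM).

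Cycle-gated and other cells also differed from each other inside the f/f library, where both strata came from the same tissue. Of 17 members with at least 50 UMIs in epithelial-gated cells, 7 were lower in the f/f cycle-gated cells with intervals that leave out 0 (Itga9, Itgb4, Itgb5, Itgb6, Itgb8, Lama3 and Lama5), beside 11.2% of the 8594 genes with that many UMIs. Itga6 was higher (0.21, 0.01 to 0.42), beside 11.7% of those genes. For Itga9 that ratio of cycle-gated to other cells was -0.78 (-1.06 to -0.50) and for Lama3 it was -0.78 (-1.23 to -0.36). None of the 17 intervals left out 0 in the d/d library, beside 6.91% of genes below 0 and 7.06% above; its other cells held 187627 UMIs against 1455919 in f/f. The share of the differences between the libraries that goes with the higher share of cycle-gated cells in d/d was not tested, beyond the values within strata given above.

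Gland markers gave a second division of the same cells. With at least 2 UMIs of 9 gland genes such as Foxa2 and Cxcl15, 237 f/f cells (10.9% of the epithelial-gated) and 19 d/d cells (2.54%) were gland-gated. In f/f, 5 of the 17 members were lower in gland-gated than in other epithelial-gated cells with intervals that leave out 0, beside 9.67% of 8594 genes, and none was higher, beside 9.24%. Among these were Lamb3 (2 against 55 UMIs; log2 ratio -2.02, -5.10 to -0.10), Lama3 (72.1 against 113 CPM), Lama5 (333 against 490.0 CPM) and Itga9 (189 against 273 CPM). The chains Lama3, Lamb3 and Lama5 were thus lower in the f/f cells with gland transcripts. The 19 d/d gland-gated cells held 0 UMIs of Itga9, Lama3 and Lamb3 and 5 of Lama5. A count of 0 there allows up to 148 CPM, which is above the f/f level of Lama3 and Lamb3 in gland-gated cells. Itga9 had 55 UMIs in the f/f gland-gated cells, and the upper end of its interval between the libraries was -0.01. For Lama5 the ratio between the libraries in gland-gated cells was -0.44 (-2.09 to 0.83). Outside the gland gate the ratios between the libraries were close to those of the whole class, at -1.98 (-2.45 to -1.55) for Itga9 and -1.93 (-2.88 to -1.11) for Itgb8.

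Of the other members with the minimum of UMIs in epithelial-gated cells, 3 had intervals that include 0. Itgb5, a vitronectin-receptor subunit, was at 67.4 and 49.8 CPM (-0.44, -1.01 to 0.10). Itga5, the fibronectin-receptor subunit, was at 44.5 and 64.0 CPM (0.52, -0.02 to 1.04), and Itga10, a collagen-receptor subunit, was at 41.4 and 31.3 CPM (-0.40, -1.15 to 0.28). Below the minimum of 100 UMIs, Itgb3, a beta subunit that pairs with alphav, had 7 and 10 UMIs (2.21, 0.66 to 3.84) and Itga2, another collagen-receptor subunit, 44 and 25 UMIs (0.88, 0.11 to 1.62). Itga1 had 16 and 0 UMIs, with the upper end of the interval at -0.26. The remaining 12 members with UMIs had fewer than 50 each in this class, and their intervals, where one could be given, included 0.

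The second comparison asked the same of stromal-gated cells. Itgb8, the matrix chain Lama2 and the chain Lamb2 were lower in d/d, and Lama5, Itga3, Itga10, Lamc1 and Itga5 were higher. Of the 32 genes 11 had at least 100 UMIs in this class. Of these, 1 (Itgb8) was lower by at least 1 on the log2 scale, beside 2.94% of 5754 genes, and 1 (Lama5) was higher by that much, beside 1.63%. The median of the 11 was 0.35, beside -0.08 for all genes, with 5 below 0 and 6 above. Intervals lay below 0 for 3, beside 15.2% of all genes, and above 0 for 5, beside 10.8%.

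Lama2 encodes the alpha chain of the laminins around muscle and stromal cells and was higher in stromal-gated than in epithelial-gated cells in both libraries. It had 170 and 26 UMIs, or 104 and 62.4 CPM (-0.74, -1.40 to -0.14). Lama4, the alpha chain of vessel laminins, went the other way with 49 and 21 UMIs (0.74, -0.07 to 1.51), so that Lama2 per 100 Lama4 UMIs was 347 in f/f and 124 in d/d (-1.48, -2.50 to -0.45). Lamb2 was at 137 and 84.0 CPM (-0.70, -1.26 to -0.19), and Lamc1, the common gamma chain, at 120.4 and 168 CPM (0.48, 0.07 to 0.88). With a lead of 5 times in the gate all 3 intervals included 0, at -0.54 (-1.39 to 0.22) for Lama2, -0.57 (-1.34 to 0.12) for Lamb2 and 0.07 (-0.59 to 0.67) for Lamc1. Lamb1 (69 and 9 UMIs; -0.97, -2.16 to 0.04) and Lamc3 (63 and 8 UMIs; -1.01, -2.28 to 0.06) were below the minimum of UMIs, with intervals that just include 0.

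Lama5 in stromal-gated cells had 161 and 89 UMIs, or 98.9 and 214 CPM (1.11, 0.72 to 1.49). This was 21.0% of its epithelial level in f/f and 34.9% in d/d, beside 14.5% to 29.0% and 20.5% to 45.6% for the 6 epithelial marker genes measured in the same way. Krt19 alone went from 17.3% to 35.1%, with a log2 ratio in stromal-gated cells of 1.19 (0.87 to 1.50). With a lead of 5 times in the gate the ratio of Lama5 was 0.67 (-0.15 to 1.42), without cells that had a cell-cycle UMI 0.39 (-0.39 to 1.11), and in cells with no marker UMI of another type, where 24 and 3 UMIs were left, -0.65 (-3.03 to 1.07). How much of the stromal Lama5 signal came from epithelial RNA or cells in the gate was not tested. Itgb4, Itgb6 and Lamb3 were likewise at 12.7% to 22.0% of their epithelial level in stromal-gated cells in either library, which is within or below the range of the epithelial markers.

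Of the other integrins counted in the stromal gate, Itga3, Itga10 and Itga5 were higher in d/d with intervals that leave out 0. Itga3 was at 52.2 and 86.4 CPM (0.73, 0.12 to 1.31) and Itga10 at 49.1 and 84.0 CPM (0.77, 0.16 to 1.36). Itga5 was at 123 and 166 CPM (0.42, 0.01 to 0.83). For Itga6 (0.35, -0.07 to 0.76), Itgb1 (-0.19, -0.70 to 0.29) and, with 95 UMIs, Itgb3 (0.06, -0.73 to 0.79) the interval included 0. Itga2b, the platelet integrin subunit, had 15 and 11 UMIs (1.52, 0.25 to 2.74), and 9 and 1 UMIs under the lead of 5 times (-0.73, -6.18 to 2.12). The other members had fewer than 100 UMIs in this class and intervals that, where one could be given, included 0.

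The third comparison placed each gene in the tissue. Over the 5 classes with at least 25 cells in both libraries (epithelial, stromal, endothelial, mesothelial and myeloid), 19 of the 25 members with at least 100 UMIs had the same highest class in f/f and d/d. The same count was not made over all genes, so whether this share is usual cannot be said. Epithelial-gated cells were highest for Lama5, Lamb3 and Itgb6, and stromal-gated cells for Lama2, which did not stand apart from the next class in either library. Endothelial-gated cells were highest for Lama4, Lamb1, Lamc1, Itgb1 and Itga1, mesothelial-gated cells for Lama3, Itga3, Itga7 and Itga2b, and myeloid-gated cells for Itga4, Itga5, Itga9, Itgb2 and Itgb5. The class differed between the libraries for Itga6, Itga10, Itgb3, Itgb4, Itgb8 and Lamb2. For none of these did the highest class in d/d stand apart from the next beyond counting error. That of Itgb8, myeloid, rested on 2 UMIs, and Itga10 was at 84.0 against 82.3 CPM.

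The order was resolved in both libraries only where the gap was wide. Itgb2, the beta subunit of leukocyte integrins, was at 321 CPM in f/f myeloid-gated cells and 11.8 CPM in the next class, and at 332 against 46.8 CPM in d/d. Itga4, which binds fibronectin and Vcam1, was at 353 against 47.1 CPM and at 443 against 31.2 CPM. Itgb5 was at 385 against 67.4 CPM and at 332 against 49.8 CPM, with the epithelial-gated cells next. These 3 were the only members whose highest class stood apart from the next beyond counting error in both libraries.

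Lama3, Itga3 and Itga9 had most of their gated UMIs in epithelial-gated cells but their highest level elsewhere. Lama3 was at 176 and 281 CPM in mesothelial-gated cells, from 20 and 12 UMIs, against 108 and 61.2 CPM in epithelial-gated cells. Its highest class did not stand apart from the next beyond counting error in either library. Itga3 was at 359.9 and 187 CPM in mesothelial-gated cells, apart from the next class in f/f only. Itga9 was at 385 and 185 CPM in myeloid-gated cells, from 24 and 5 UMIs, against 262 and 66.9 CPM in epithelial-gated cells, and the 2 classes did not differ beyond counting error in either library. Itga7, the muscle laminin receptor subunit, was at 246 and 93.6 CPM in mesothelial-gated cells. It was at 269 CPM (18 UMIs) in f/f cells of the muscle and pericyte gate, which with 70 and 17 cells was left out of the order. Itga1, a collagen-receptor subunit, was at 239 CPM (16 UMIs) in that f/f gate, against 76.5 CPM in f/f endothelial-gated cells.

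**Figure D3:**
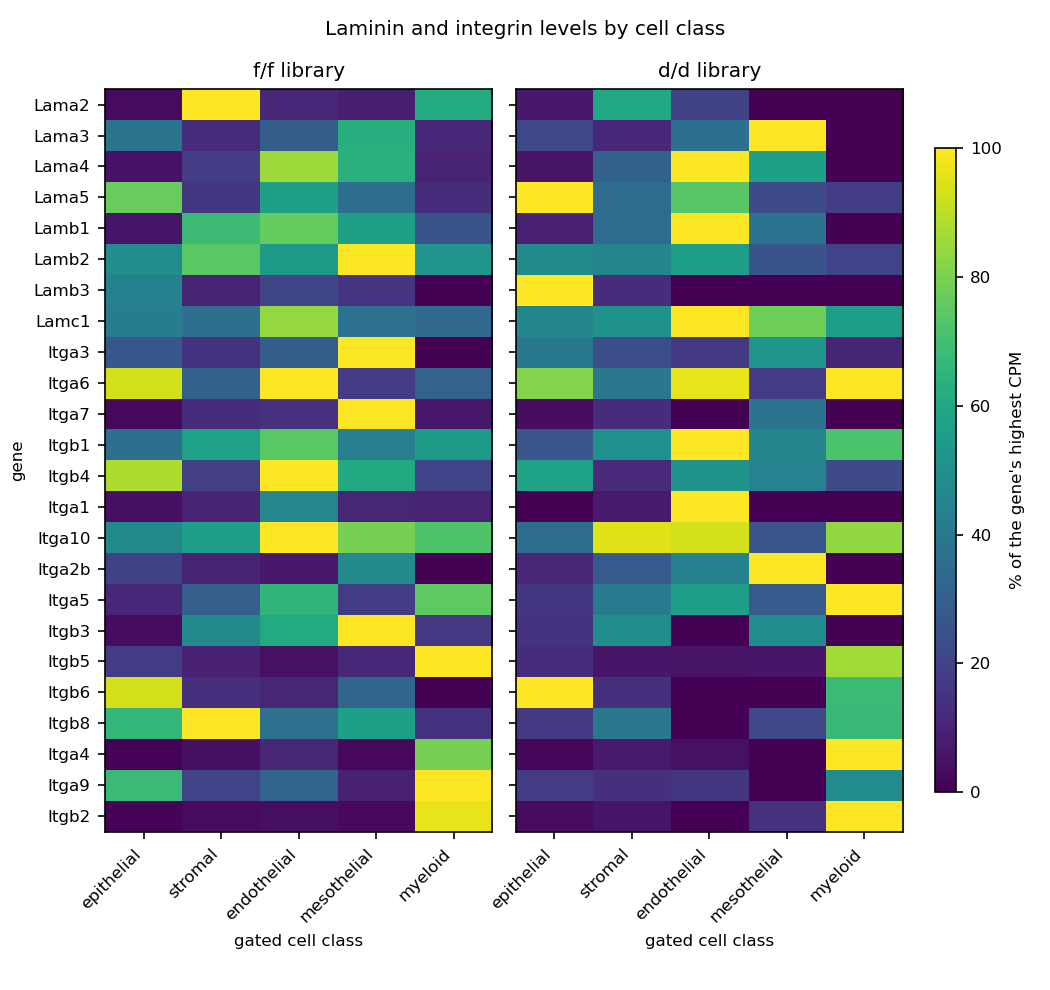
Level of the members reported here with at least 100 UMIs in 5 gated cell classes of the f/f (left) and d/d (right) library, as a percentage of the gene's own highest CPM over the 10 values shown, so that colours compare classes and libraries within a gene and not genes with each other. Itgb2, Itga4 and Itgb5 are brightest in myeloid-gated cells of both libraries, Lama2 in stromal-gated cells, and the epithelial squares of Itga9 and Itgb8 are darker in d/d.

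The last comparison covered 58 genes that work with these members, in 5 lists. In epithelial-gated cells only Lims2 was lower by at least 1 among the partner genes with the minimum of 100 UMIs, and none was higher, beside the 4.42% and 4.86% of all genes given above. Hspg2, the basement membrane proteoglycan perlecan, was at 42.8 and 85.4 CPM (interval 0.51 to 1.48), a ratio that falls short of that size only by rounding. Lims2 encodes PINCH2, an adaptor of the integrin-linked kinase complex, and had 179 and 10 UMIs, or 78.9 and 14.2 CPM (-2.47, -3.56 to -1.56). The integrin adaptors as a list had 14 of 19 members counted and a median of -0.10, and the intervals of its paralogue Lims1 and of the kinase Ilk included 0. The 8 counted basement membrane partners had a median of -0.12 and the 5 counted other laminin receptors and hemidesmosome genes 0.13. Ligands other than laminins (3 counted) and integrin subunits outside the naming rule (2 counted) had medians of -0.52 and -0.57, with none past 1.

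In stromal-gated cells the 3 partners with at least 100 UMIs that were lower by at least 1 were matrix genes, beside 2.94% of all genes. Col4a6 encodes a chain of the type IV collagen network of basement membranes and had 503 and 30 UMIs, or 309 and 72.0 CPM (-2.10, -2.68 to -1.57). Col4a5, the chain that joins it in that network, was at 125 and 62.4 CPM (interval -1.65 to -0.40). Its log2 ratio rounds to -1.00 but falls just short of that size. In epithelial-gated cells Col4a6 was at 56.4 and 65.5 CPM (0.21, -0.30 to 0.71). Col18a1, the proteoglycan collagen that gives rise to endostatin, was at 566 and 264 CPM in stromal-gated cells (-1.10, -1.40 to -0.81). It kept the size of 1 in 6 of 10 alternative settings, which ranged from -1.15 to -0.76. One that lost it left out cells that had a cell-cycle UMI (-0.84, -1.28 to -0.43). Tnc, tenascin-C, a ligand of the alpha9 integrin, was at 98.9 and 40.8 CPM (-1.28, -2.09 to -0.55), and at -0.54 (-1.61 to 0.38) under the same restriction. The 13 counted basement membrane partners had a median of -0.49, the 3 counted other ligands -0.74, and the 14 counted adaptors 0.09. The 4 counted laminin receptors and hemidesmosome genes had a median of -0.05, and no partner with at least 100 UMIs was higher by 1.

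**Figure D4:**
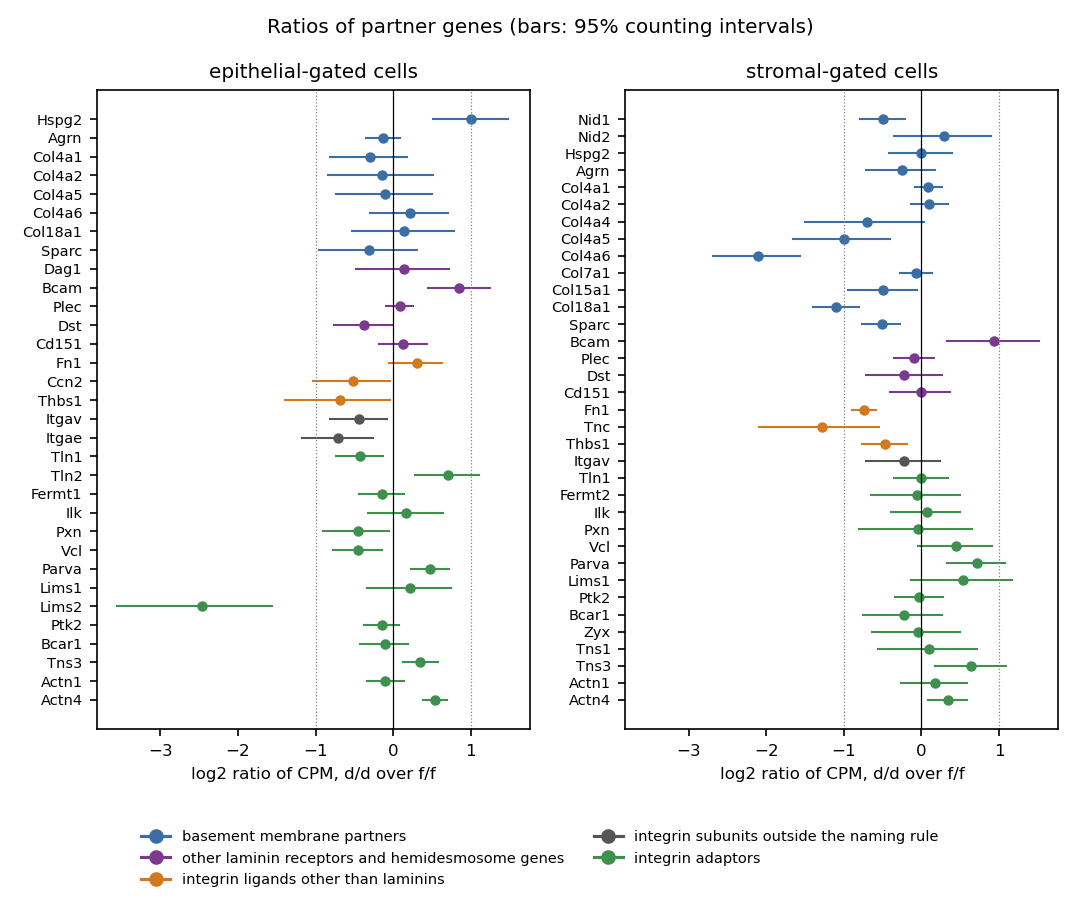
Log2 ratio of CPM (d/d to f/f) of the partner genes whose UMIs in the 2 libraries sum to 100 or more in epithelial-gated (left) or stromal-gated cells (right), coloured by list; bars are 95% counting intervals and dotted lines mark -1 and 1. Lims2 lies at -2.47 on the left, and Col4a6, Tnc and Col18a1 lie at -2.10, -1.28 and -1.10 on the right.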

How the data were processed

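The deposited values are UMI counts per gene and cell barcode, not normalised; per the file headers they come from Cell Ranger 9.0.0, and the submitters' processing notes name both mm10 and GRCm39. Per the labels' protocols, minced endometrium was fixed, dissociated and read with 10x Flex probe pairs. Each library is 1 sample, and the labels give its genotype. Cells with at least 200 genes and at most 10% mitochondrial UMIs were kept. Of 81 gate markers 80 were measured. Endothelial, mesothelial, muscle and pericyte, myeloid and lymphoid cells needed at least 3 marker UMIs, 2 times those of every other such type and of epithelium, and 0.5 times the stromal ones; remaining cells were epithelial or stromal with at least 2 marker UMIs and a lead of 2 times. These numbers were set after marker levels had been seen. Cells in which no type met the gate stayed without a class. A gated cell could therefore hold marker UMIs of another type, and no doublet caller was run. For example, f/f mesothelial-gated cells had medians of 5.0 mesothelial and 4.0 stromal marker UMIs. The genes, lists and members were chosen with earlier results of these data known.

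UMIs were summed per class and library. CPM have exact Poisson intervals and ratios exact conditional binomial intervals, at 95%; ratios of 1 member to another have conditional odds-ratio intervals. All cover counting error only. A count of 0 was taken to allow 3 counts. Genes were counted with at least 100 UMIs over both libraries in a class, and a log2 ratio of at least 1 in size was taken as large. Counts over the members include 1 that is not reported here; every other member was named; a member was described in full with at least 100 UMIs in the class, or with a large ratio whose interval left out 0, and a partner gene was named with at least 100 UMIs and a large ratio. Other members, ratios of 1 member to another and strata were named after their values had been seen. The ratio function was tested on simulated data. Python 3.11.15, numpy 2.4.6, scipy 1.17.1 and pandas 2.3.3 were used.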

Additional observations from a re-analysis of the deposited data

How the results depend on the processing

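With 12 alternatives, 2 of them chosen after the data had been seen (a gate with no marker UMI of another type, and cells with no cell-cycle UMI), 35 log2 ratios of named genes gave 349 values, of which 22 lay outside the reported interval. The sign held in every alternative run for 26 ratios. It turned for Itga2b, Itga9, Itgav and Lama5 in stromal-gated cells and for Itga5, Itgb5, Itgb6, Lamb2 and Lamc1 in epithelial-gated cells, and of these the called ratios were Itga2b (-0.73 with a lead of 5 times) and Lama5 (-0.65 with no marker UMI of another type). In epithelial-gated cells Itga9 ranged from -2.70 to -1.91 and Itgb8 from -2.41 to -1.44. In epithelial-gated cells 3 genes were lower by at least 1 with a lead of 5 times (Lama3 with the other 2), and without cell-cycle UMIs Itgb8, at 91 and 4 UMIs, was under the minimum. In stromal-gated cells, with all deposited barcodes 0 genes were higher by at least 1; with a lead of 5 times 0 were lower and 0 higher, with a median of -0.29; without cell-cycle UMIs 0 were lower and 0 higher, with a median of -0.14. With a gene minimum of 50 UMIs, 1 gene (Lamb3) was higher in epithelial-gated cells, and 2 were lower in stromal-gated cells, where the median was -0.19. With a minimum of 200 UMIs, 1 was lower in epithelial-gated and 0 in stromal-gated cells, and 11 of 16 genes had the same highest class. With no marker UMI of another type no member reached 100 UMIs in stromal-gated cells, which gave no count or median. The highest class was given no value where a class had fewer than 25 cells. Leaving out a library would leave no comparison. No paired analysis was possible because each genotype has 1 library. Depth limits every class but the epithelial and stromal ones: in d/d, 1 UMI was worth 20.6 CPM in endothelial-gated and 36.9 CPM in myeloid-gated cells.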
